A study of Mus musculus with 16 samples.

Results

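The genes described here are the 5 keratins of simple, single-layered epithelia, Krt7, Krt8, Krt18, Krt19 and Krt20, taken by name from a table of 24019 genes counted in mouse pancreas. All 5 had enough counts to be among the 8236 genes tested. The table holds 16 libraries of whole pancreatic tissue, 4 in each of 4 groups made of 2 genotypes and 2 treatments. The mice were C57BL/6J wild type (WT) or homozygous for the hypomorphic allele Adam17ex (Adam17ex/ex, written Adam17ex below), and the labels describe them as littermates of the same age, 6 to 8 weeks. The allele lowers ADAM17, a membrane protease that sheds cytokines and growth factors, in the whole animal and not in a chosen cell type. Mice were injected into the peritoneum each hour, 7 times, with 50 µg per kg of cerulein, a cholecystokinin-like peptide whose excess injures acinar cells and brings on acute pancreatitis, or with 50 µl of phosphate-buffered saline (PBS), and tissue was taken 1 h after the last injection. The 4 groups are called WT PBS, WT cerulein, Adam17ex PBS and Adam17ex cerulein, and values given for the 4 groups follow this order. They held 0, 1, 2 and 2 males. Each label also carries a 4-digit code of unstated meaning. All 4 WT PBS codes are higher numbers than all 4 WT cerulein codes, while in Adam17ex the ranges of the PBS and cerulein codes overlap. Between genotypes, all 4 WT codes are higher than all 4 Adam17ex codes under PBS, and all 4 are lower under cerulein. If the codes mark cohorts, cohort cannot be told apart from treatment in WT, or from genotype under either treatment.

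Keratins form intermediate filaments, the ropes that brace epithelial cells and take part in their response to stress. A filament needs a type II keratin (Krt7 or Krt8) paired with a type I keratin (Krt18, Krt19 or Krt20). In the pancreas Krt8 and Krt18 are the keratins of acinar cells, duct cells add Krt19 and Krt7, and Krt20 is best known from intestinal, gastric and urinary epithelium.

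Of the 24 keratin genes in the table, these 5 held 99.3% of the keratin counts, 70417 unique molecular identifiers (UMIs, 1 per tagged RNA molecule) against 473 for the other 19. Krt8 had 39812 UMIs over the 16 libraries, Krt18 had 26190, Krt19 had 3510, Krt7 had 539 and Krt20 had 366. On GRCm38 the type II genes lie on chromosome 15, with Krt7 at chr15:101411043-101430313 on the plus strand with 9 exons and Krt8 at chr15:101996698-102004482 on the minus strand with 9 exons. Krt18, a type I gene with 7 exons, lies beside Krt8 at chr15:102028180-102032027 on the plus strand, 23698 bp away. Krt19 lies at chr11:100140810-100148665 with 6 exons and Krt20 at chr11:99428403-99438150 with 8 exons, both on the minus strand.

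The sequences around the annotated starts of 3 members are shown because Krt8 and Krt18 are the neighbouring pair whose counts moved most closely together, while Krt20 was among the least abundant and the most variable. They come from RefSeq on GRCm38.p6, which gave a window of 300 bases, from 250 before to 50 after the start, for 4 of the 5 members (Krt7, Krt8, Krt18 and Krt20). The Krt8 window is chr15:102004293-102004592 on the minus strand, that of Krt18 is chr15:102027966-102028265 on the plus strand, and that of Krt20 is chr11:99438104-99438403 on the minus strand. Each reads 5′ to 3′ along its gene, with capitals at matches, on either strand, to TATAAA or GAANNTTC (N is any base).
Krt8: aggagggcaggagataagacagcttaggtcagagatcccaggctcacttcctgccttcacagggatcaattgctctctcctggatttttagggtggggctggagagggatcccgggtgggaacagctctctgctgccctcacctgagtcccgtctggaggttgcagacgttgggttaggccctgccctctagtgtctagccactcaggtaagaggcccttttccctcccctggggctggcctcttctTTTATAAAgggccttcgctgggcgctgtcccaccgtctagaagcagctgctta
Krt18: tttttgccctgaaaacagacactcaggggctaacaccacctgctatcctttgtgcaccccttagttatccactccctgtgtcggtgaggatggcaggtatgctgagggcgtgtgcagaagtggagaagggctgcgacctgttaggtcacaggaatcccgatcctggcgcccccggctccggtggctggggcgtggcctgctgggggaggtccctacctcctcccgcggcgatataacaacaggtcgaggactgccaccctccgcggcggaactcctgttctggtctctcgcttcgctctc
Krt20: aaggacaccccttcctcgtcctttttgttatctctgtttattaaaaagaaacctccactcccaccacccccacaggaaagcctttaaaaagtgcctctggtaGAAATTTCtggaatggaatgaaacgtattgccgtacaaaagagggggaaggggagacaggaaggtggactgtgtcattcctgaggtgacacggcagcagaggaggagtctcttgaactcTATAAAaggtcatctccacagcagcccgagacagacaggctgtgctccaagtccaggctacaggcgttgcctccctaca
The 5 motifs searched on both strands were TATAAA (the TATA box), GGGCGG (the GC box), TGANTCA (AP-1), GAANNTTC (heat shock factor) and TTCNNNGAA (STAT). The starts are those of RefSeq and differ from the gene limits given above, and that of Krt8 lies inside them. The Krt8 window holds TATAAA beginning 1 base before this RefSeq start, overlapping a match on the other strand. The Krt20 window holds TATAAA beginning 29 bases before the start and GAANNTTC, which reads the same on both strands, 148 bases before it. The Krt18 window holds none of the 5. The Krt7 window, not shown, holds GGGCGG 4 times. Of 32851 such windows, 13.6% hold TATAAA, 35.7% GGGCGG, 7.81% TGANTCA, 7.86% GAANNTTC and 8.3% TTCNNNGAA. The windows of Krt7, Krt18, Krt8 and Krt20 are 66.3%, 61.3%, 58% and 50% G and C, where the median window has 52.7%.

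Libraries held 455547 to 1476159 UMIs. Levels are given as CPM, the count as a share of 1e6 UMIs of the tested genes after TMM scaling, so 1 UMI was worth 0.681 to 2.60 CPM. The 3 Adam17ex PBS replicates 1 to 3 stand apart. They were the shallowest (455547 to 492878 UMIs). They gave 7.84 to 9.02% of their UMIs to the ribosomal RNA gene CT010467.1, against 2.02 to 5.04% in the other 13. Fits without these 3 keep 1 Adam17ex PBS library, so for that group only their effect sizes are read. Adam17 had 41, 68, 10 and 15 UMIs in the 4 groups, and was lower in Adam17ex than WT under cerulein (log2 fold change -2.05 ± 0.40 SE, edgeR adjusted p = 0.00138). With poly(A) priming these counts come mostly from the 3′ end, and whether they cover the altered part of the gene was not tested. Acinar markers dominated each library with 145129 to 305449 CPM in sum over 16 genes.

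With cerulein, wild-type pancreas raised each of the 5 keratins. Together they went from 0.0650% ± 0.00356 of UMIs in WT PBS to 1.08% ± 0.0697 in WT cerulein (SD, n = 4 each). In Adam17ex the sum went from 0.0843% ± 0.0161 to 0.454% ± 0.0802. The primary pair Krt8 and Krt18 rose most in both genotypes, and each member was lower in Adam17ex than in WT after cerulein.

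Krt8, the main type II keratin of these tissues, measured 350.3, 331, 308 and 402 CPM in WT PBS replicates 1 to 4. In WT cerulein it measured 4886, 6635, 4563 and 4992 CPM. The lowest cerulein library thus lay far above the highest PBS library. In Adam17ex PBS the values were 481, 467, 526 and 372 CPM, and in Adam17ex cerulein 3294, 3176, 2131 and 3528 CPM. The order of the groups was WT cerulein (5269 ± 929 CPM, SD), Adam17ex cerulein (3032 ± 618), Adam17ex PBS (462 ± 65.0) and WT PBS (348 ± 40.1), where the PBS groups overlapped through Adam17ex replicate 4 and neighbours higher in the order did not.

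Krt18, the type I partner of Krt8, measured 262, 255, 223 and 304 CPM in WT PBS and 3244, 4773, 3314 and 3888 CPM in WT cerulein. In Adam17ex PBS it measured 401, 374, 379.7 and 339 CPM, and in Adam17ex cerulein 1728, 1765, 1293 and 1643 CPM. No 2 groups overlapped for Krt18: each Adam17ex PBS library lay above each WT PBS library, and each Adam17ex cerulein library below each WT cerulein library. The means in descending order were 3805 ± 707 in WT cerulein, 1607 ± 216 in Adam17ex cerulein, 374 ± 25.4 in Adam17ex PBS and 261 ± 33.5 in WT PBS.

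Krt19, the smallest keratin and a marker of ducts, measured 56.4, 48.4, 58.8 and 40.4 CPM in WT PBS and 552, 601, 433 and 631 CPM in WT cerulein. In Adam17ex PBS it measured 70.2, 38.7, 60.3 and 65.7 CPM, and in Adam17ex cerulein 184, 166, 131 and 123 CPM. The PBS groups overlapped, with means of 51.0 ± 8.33 in WT and 58.7 ± 13.9 in Adam17ex. The cerulein groups were apart from them and from each other, at 554 ± 87.3 in WT and 151 ± 28.7 in Adam17ex.

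Krt7, the type II keratin of ducts, was scarce, with 7 to 17 UMIs per WT PBS library and 5 to 14 per Adam17ex PBS library. It measured 18.8, 12.7, 10.5 and 8.58 CPM in WT PBS and 63.3, 113, 83.1 and 41.3 CPM in WT cerulein. In Adam17ex PBS it measured 18.2, 12.9, 20.1 and 14.1 CPM, and in Adam17ex cerulein 13.7, 30.2, 32.4 and 27.9 CPM. WT cerulein (75.2 ± 30.4) stood above the other groups, while Adam17ex cerulein (26.1 ± 8.44) overlapped both Adam17ex PBS (16.3 ± 3.37) and WT PBS (12.6 ± 4.44) through its replicate 1.

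Krt20 was the least abundant, with 2 to 19 UMIs per PBS library. It measured 8.23, 14.1, 10.5 and 6.13 CPM in WT PBS and 36.2, 38.8, 22.9 and 94.2 CPM in WT cerulein. In Adam17ex PBS it measured 5.20, 10.3, 4.02 and 19.2 CPM, and in Adam17ex cerulein 10.5, 38.2, 14.4 and 8.17 CPM. WT cerulein (48.0 ± 31.6) stood above both PBS groups (9.75 ± 3.43 in WT, 9.68 ± 6.90 in Adam17ex), but Adam17ex cerulein (17.8 ± 13.8) overlapped all 3 of the others. The highest library of each cerulein group, WT replicate 4 and Adam17ex replicate 2, stood well apart from the next, at 94.2 against 38.8 CPM and 38.2 against 14.4 CPM.

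**Figure D1:**
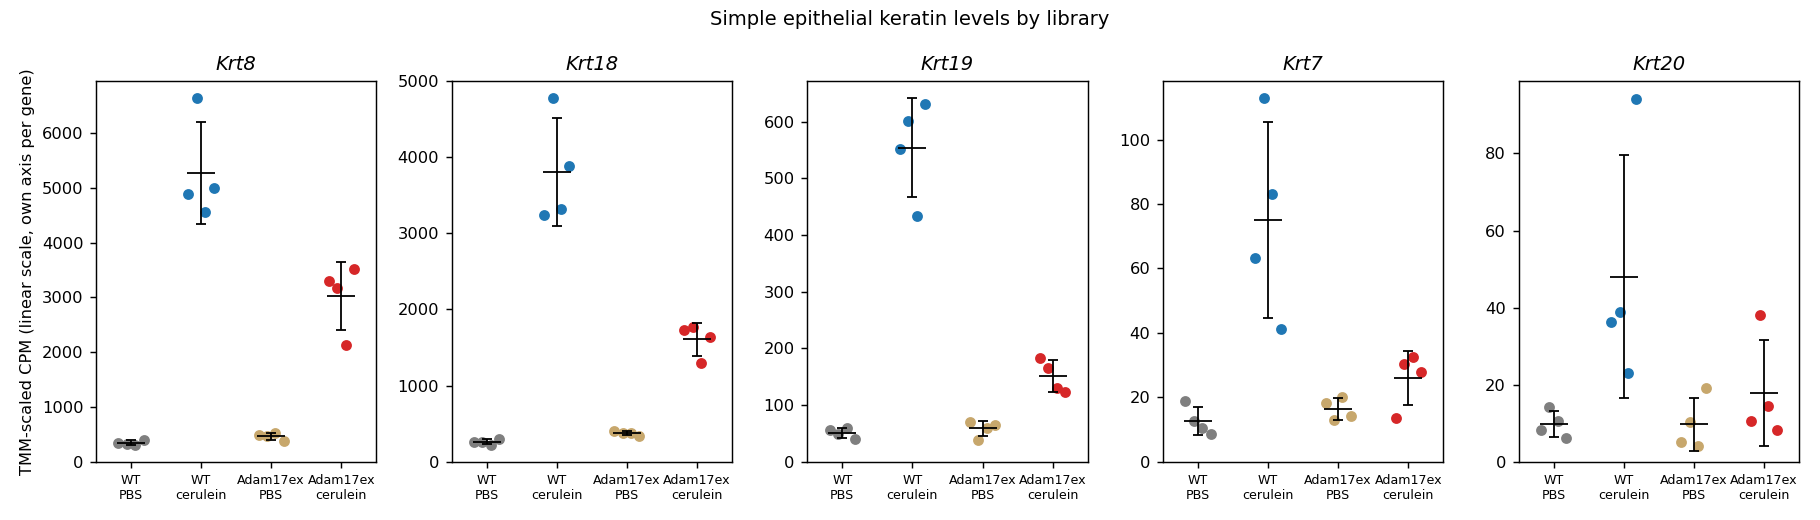
Level of each keratin in CPM (linear axis from 0, a separate scale for each gene) in the 4 groups; each point is 1 library, and the lines show the group mean and SD. For Krt8, Krt18 and Krt19 the Adam17ex cerulein libraries lie between the PBS libraries and the WT cerulein libraries, while for Krt7 and Krt20 they overlap the PBS libraries.

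In WT, 5 of 5 members rose with cerulein, where 19.8% of all genes tested rose and 21.3% fell (edgeR quasi-likelihood test, Benjamini-Hochberg adjusted p under 0.05). Krt8 was 15.4-fold higher (95% interval 11.2 to 21.1, log2 fold change 3.94 ± 0.22 SE, adjusted p = 1.275e-11). Krt18 was 14.8-fold higher (11.1 to 19.7, log2 3.89 ± 0.20, adjusted p = 3.70e-12) and Krt19 10.7-fold (7.95 to 14.5, log2 3.42 ± 0.21, adjusted p = 3.85e-11). By size of rise among the 8236 genes they ranked 26, 30 and 54. Krt7 was 5.71-fold higher (3.64 to 8.94, log2 2.51 ± 0.31, adjusted p = 1.23e-06, rank 153) and Krt20 4.61-fold (2.30 to 9.27, log2 2.21 ± 0.49, adjusted p = 0.000881, rank 233). In 5 of 5 members each cerulein library exceeded each PBS library, which held for 19.2% of all genes. The median log2 fold change was 3.42 over the members and -0.04 over all genes. Since the libraries come from tissue, a change in the number of cells of a type and a change in RNA per cell cannot be told apart, here and below.

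In Adam17ex, 3 of 5 members rose with cerulein (14.1% of all genes rose and 16.2% fell). These were Krt8 (6.54-fold, 95% interval 4.85 to 8.82, log2 2.71 ± 0.21, adjusted p = 4.42e-09), Krt18 (4.30-fold, 3.29 to 5.62, log2 2.10 ± 0.19, adjusted p = 2.98e-08) and Krt19 (2.54-fold, 1.88 to 3.43, log2 1.34 ± 0.21, adjusted p = 5.30e-05). In the same 3 each cerulein library exceeded each PBS library (13.8% of all genes). Krt7 did not pass, with log2 0.69 ± 0.37 (interval -0.08 to 1.45, adjusted p = 0.165), nor did Krt20, with log2 0.62 ± 0.60 (interval -0.63 to 1.86, adjusted p = 0.467). For Krt20 the sign rested on Adam17ex cerulein replicate 2, without which the log2 value was -0.081, and on the shallow PBS libraries, without which it was -0.35. The members' median was 1.34, that of all genes -0.03. On the log2 scale the rise in Adam17ex was 68.8% of that in WT for Krt8, 54.1% for Krt18 and 39.2% for Krt19.

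**Figure D2:**
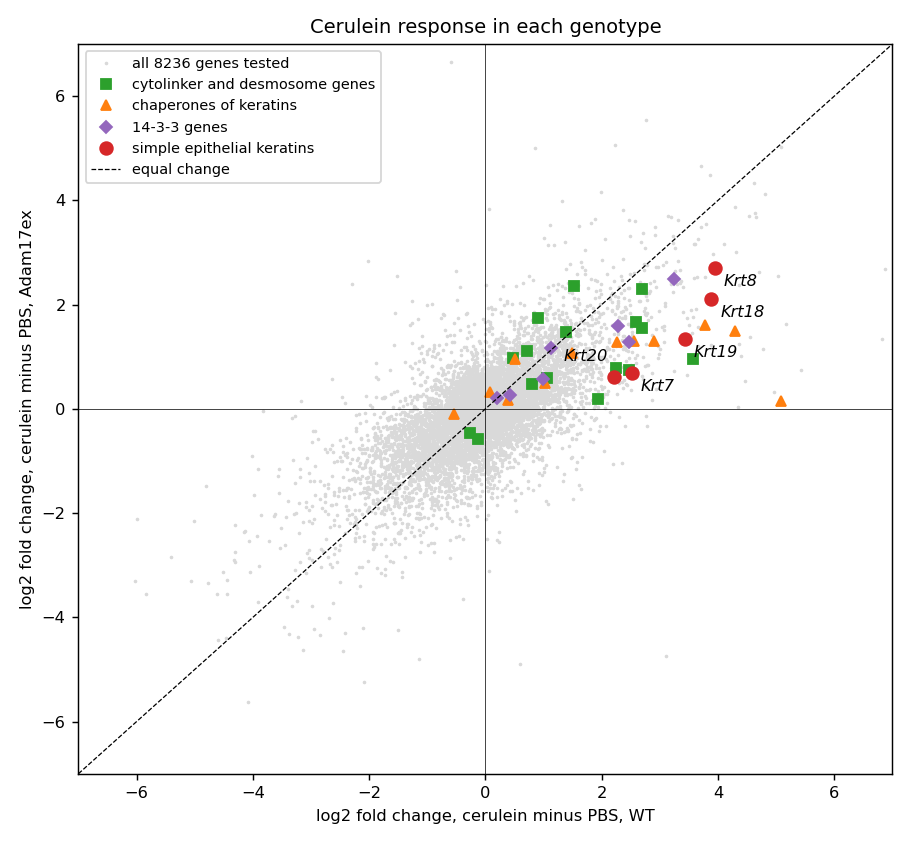
Log2 fold change with cerulein in WT (x axis) against that in Adam17ex (y axis) for the 8236 genes tested (grey), with the 5 keratins in red and the cytolinker, chaperone and 14-3-3 lists described below in other colours; the dashed line marks equal change. All 5 keratins lie to the right of 2 on the WT axis and below the line of equal change, with Krt8 highest at 2.71 in Adam17ex.

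Under cerulein, 5 of 5 members were lower in Adam17ex than in WT, where 3.85% of all genes were lower and 5.85% higher. Krt19 differed most, with a log2 fold change of -1.89 ± 0.19 (95% interval -2.29 to -1.49, adjusted p = 6.62e-07). It was followed by Krt7 (-1.56 ± 0.28, -2.15 to -0.97, adjusted p = 0.000842), Krt20 (-1.46 ± 0.46, -2.42 to -0.51, adjusted p = 0.0468), Krt18 (-1.22 ± 0.18, -1.60 to -0.84, adjusted p = 0.000103) and Krt8 (-0.78 ± 0.20, -1.19 to -0.37, adjusted p = 0.0122). For 4 of the 5 each Adam17ex library lay below each WT library (7.92% of all genes); Krt20 was the exception. Its call was lost in 10 of 16 fits that left out 1 library: WT PBS 1, 3 or 4, WT cerulein 1, 2 or 4, Adam17ex PBS 2, or Adam17ex cerulein 1, 3 or 4 (log2 -1.90 to -0.98, adjusted p 0.0514 to 0.256). Among females alone the Krt8 difference was -0.67 (adjusted p = 0.141) and the other 4 members passed. The median over members was -1.46, over all genes 0.01.

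Under PBS none of the 5 members passed between genotypes by edgeR, where 0.631% of all genes were higher and 0.729% lower in Adam17ex. The 1 with an unadjusted p under 0.05 was Krt18, 1.48-fold higher in Adam17ex (95% interval 1.11 to 1.97, log2 0.56 ± 0.20, adjusted p = 0.146), which lay above WT in each library (1 of 5 members, 4.16% of all genes). DESeq2 called it, with an adjusted p of 0.0316. The comparison draws on the 3 shallow libraries. Adam17ex PBS replicate 4, which is not shallow, had the lowest Krt18 of its group (339 CPM, against up to 304 in WT PBS). Krt8 had log2 0.45 ± 0.22 (interval -0.00071 to 0.90, adjusted p = 0.303). Krt7 (0.27 ± 0.43), Krt19 (0.19 ± 0.24) and Krt20 (0.13 ± 0.67) had adjusted p-values of 0.823, 0.740 and 0.963. The intervals reached 1.16 for Krt7, 0.68 for Krt19 and 1.51 for Krt20, so differences of that size remain possible.

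The cerulein effect itself differed between genotypes for 4 of 5 members, each lower in Adam17ex (2.27% of all genes were lower and 3.75% higher). This interaction was -2.08 ± 0.29 for Krt19 (log2, adjusted p = 0.000162), -1.83 ± 0.50 for Krt7 (adjusted p = 0.0323), -1.78 ± 0.26 for Krt18 (adjusted p = 0.000229) and -1.23 ± 0.28 for Krt8 (adjusted p = 0.0121). Krt20 had -1.59 ± 0.80 (interval -3.24 to 0.06, adjusted p = 0.250). It draws on the same libraries as the comparisons above and adds no independent evidence. Without the 3 shallow Adam17ex PBS libraries, which leaves 1 in that group, Krt7 had -1.68 and Krt8 -0.82. Among females alone neither was called. The Krt7 call was lost in 8 of 16 fits without 1 library (-1.90 to -1.52, adjusted p 0.0512 to 0.0779). These left out WT PBS 3 or 4, WT cerulein 2 or 3, Adam17ex PBS 1, 3 or 4, or Adam17ex cerulein 2. Whether the interaction differed between members was not tested.

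**Figure D3:**
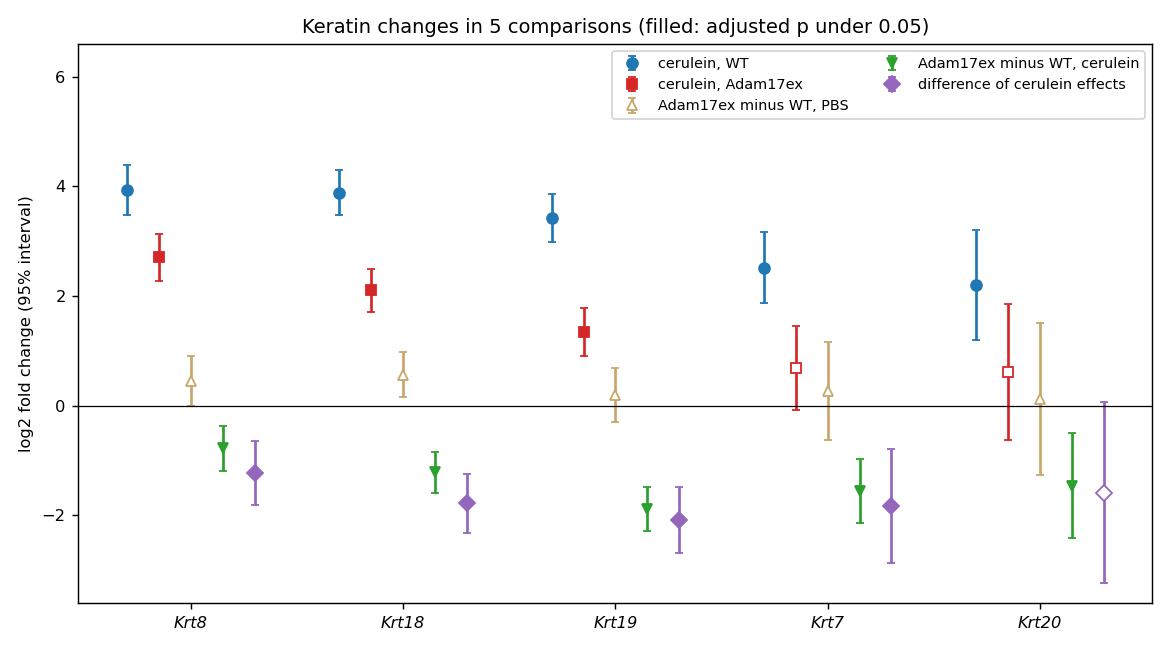
Log2 fold change of each keratin in 5 comparisons with its 95% interval (y axis); filled symbols had an edgeR adjusted p under 0.05. The WT cerulein changes lie between 2.21 and 3.94, the Adam17ex cerulein changes between 0.62 and 2.71, and the genotype differences under cerulein between -1.89 and -0.78.

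The makeup of the keratin pool also differed. These shares are of UMIs, counted mostly at 3′ ends and so not divided by transcript length. Krt8 made up 50.9% ± 1.27, 54.0% ± 1.64, 50.0% ± 3.17 and 62.4% ± 2.95 (SD, n = 4 each) of the 5 members' UMIs in the 4 groups. Krt18 made up 38.2% ± 1.45, 39.0% ± 1.43, 40.7% ± 1.60 and 33.5% ± 2.12, and Krt19 7.60%, 5.73%, 6.42% and 3.17%. Adam17ex cerulein thus had the highest share of Krt8 and the lowest shares of Krt18 and Krt19.

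The number of Krt8 UMIs per Krt18 UMI was 1.34, 1.30, 1.38 and 1.32 in WT PBS. It was 1.51, 1.39, 1.38 and 1.28 in WT cerulein and 1.20, 1.25, 1.39 and 1.10 in Adam17ex PBS. In Adam17ex cerulein it was 1.91, 1.80, 1.65 and 2.15, above each of the other 12 libraries. The lowest of these, 1.65 in replicate 3, had an exact binomial 95% interval of 1.53 to 1.78, and the highest of the others, 1.51 in WT cerulein replicate 1, one of 1.44 to 1.57; these cover counting error only. The ratio was chosen after its values were seen and has no test. Its mean in Adam17ex cerulein, 1.88 ± 0.210, was 1.78 to 1.95 when each library was left out in turn. Counted by class, type II UMIs per type I UMI averaged 1.12, 1.22, 1.08 and 1.71 in the 4 groups. Krt19 UMIs per 100 Krt18 UMIs ran from 13.3 to 26.4, 12.6 to 17.01, 10.3 to 19.3 and 7.50 to 10.6, so that Adam17ex cerulein was lowest and overlapped Adam17ex PBS through the latter's replicate 2.

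**Figure D4:**
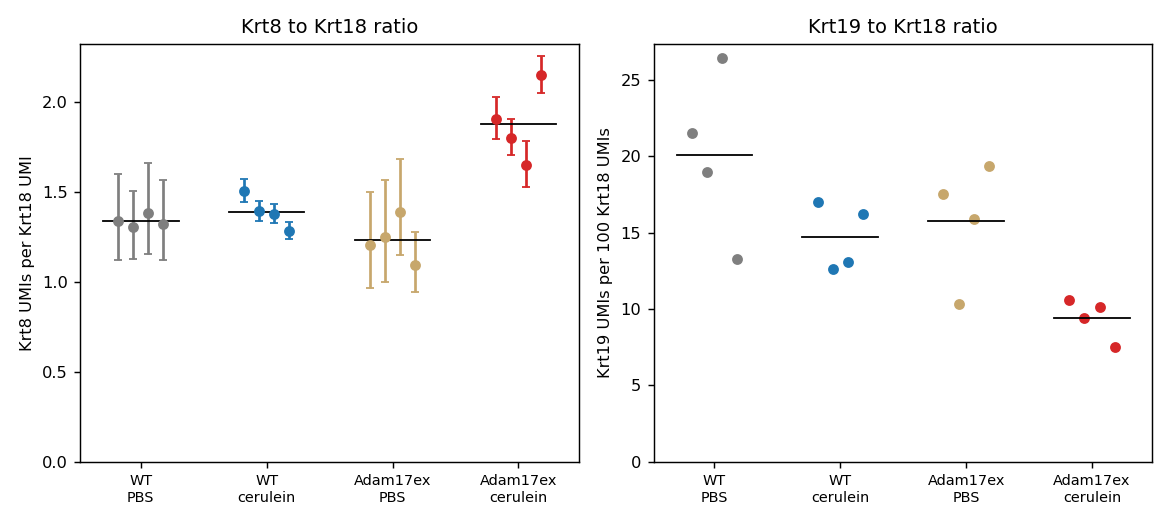
Krt8 UMIs per Krt18 UMI and Krt19 UMIs per 100 Krt18 UMIs in each library (points) with group means (horizontal lines); error bars in the left panel are exact binomial 95% intervals. The 4 Adam17ex cerulein libraries lie from 1.65 to 2.15 for Krt8 per Krt18, above the other 12, and from 7.50 to 10.6 for Krt19 per 100 Krt18.

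Part of the Krt8 row may be shared with a copy. Of the 1909 stretches of 50 bases in its transcript, 514 (26.9%) also occur in the pseudogene Krt8-ps, which had 2, 68, 1 and 49 UMIs in the 4 groups; how reads matching both were assigned is not given in the sources used here. For Krt18 10 of 1388 (0.72%) were shared, with Gm17847 and Gm5200, which had 1 and 22 UMIs in all, and for Krt7, Krt19 and Krt20 none were.

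Over the 16 libraries the log2 levels of Krt8 and Krt18 had a Pearson r of 0.99, and their deviations from the group means one of 0.88. For the other 9 pairs the deviations gave -0.31 to 0.29, so the libraries of a group that were high in Krt8 were high in Krt18 but not regularly in the others. These are descriptions over libraries that share depth and group, as are the following. Of 6935 genes with a mean of at least 10 counts, the 3 most like Krt8 were Cdh1 (E-cadherin, 0.98), Nupr1 (a stress-induced nuclear protein, 0.98) and Efhd2 (0.98). The 3 most like Krt18 were Ctsl (the protease cathepsin L, 0.98), Actn1 (an actin cross-linker, 0.98) and Efhd2 (0.98). Krt19 was followed by Hspb1 (a small heat shock protein, 0.96), Epcam (an epithelial adhesion molecule, 0.96) and Actg1 (actin, 0.96), and Krt7 by Dnaja1 (a heat shock co-chaperone, 0.92), Emp1 (0.92) and Hspb1 (0.92). Krt20 had looser neighbours, Abhd2 (0.88), Rrp7a (0.85) and Pdcd6 (0.84).

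Genes that link keratins to junctions moved in part with them. Of 16 tested cytolinker and desmosome genes, 12 rose and 0 fell in WT and 8 rose and 0 fell in Adam17ex, with medians of 1.45 and 0.96. For comparison with this list and those below, 19.8% of all genes rose and 21.3% fell in WT, and 14.1% and 16.2% in Adam17ex. Under cerulein 5.85% were higher in Adam17ex and 3.85% lower, and under PBS 0.631% and 0.729%. The interaction was positive for 3.75% and negative for 2.27%. Plec (plectin, a linker of filaments) rose by log2 2.70 ± 0.23 in WT and 1.55 ± 0.23 in Adam17ex, and Pkp3 (plakophilin of desmosomes) by 2.70 ± 0.28 and 2.29 ± 0.30. Dsp (desmoplakin, which anchors keratins at desmosomes) went the other way under cerulein, where it was higher in Adam17ex by 1.07 ± 0.18 (edgeR adjusted p = 0.000350). It rose by 1.53 ± 0.20 in WT and 2.36 ± 0.20 in Adam17ex, but its interaction did not pass (0.83 ± 0.29, adjusted p = 0.086). Itga6, an integrin of hemidesmosomes, rose by 0.91 ± 0.20 and 1.74 ± 0.21, and its interaction did not pass either (0.83 ± 0.29, adjusted p = 0.0907). Under cerulein Dsp was the 1 gene of the list that was higher in Adam17ex and 2 were lower, Eppk1 and Itgb4, which are named after their values were seen. The interaction passed for 3, all negative (Plec, Itgb4 and Ppl, the last 2 named likewise). That of Plec was -1.15 ± 0.33 (edgeR adjusted p = 0.0383), and -0.72 without the shallow libraries. Its call was lost in 12 of 16 fits without 1 library (-1.32 to -0.88 over the 16). It stayed without WT cerulein 1, Adam17ex PBS 2 or 4, or Adam17ex cerulein 1. Under PBS 1 was higher in Adam17ex, Ppl, in a comparison that draws on the shallow libraries.

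Genes of a list of chaperones and other proteins known to act on keratins rose in part in both genotypes. Of 12, 8 rose and 1 fell in WT (median 1.88) and 6 rose and 0 fell in Adam17ex (median 1.01). Under cerulein 6 were lower and 0 higher in Adam17ex, and under PBS 0 passed. Hspb1, which binds filaments, rose by 3.77 ± 0.24 in WT and 1.61 ± 0.27 in Adam17ex, with an interaction of -2.16 ± 0.37 (adjusted p = 0.00110). Sqstm1 (p62, an autophagy receptor found with keratins in inclusion bodies) rose by 2.56 ± 0.19 and 1.31 ± 0.19, with an interaction of -1.25 ± 0.26 (adjusted p = 0.00661). Hspa1a and Hspa1b, inducible Hsp70 genes whose near-identical sequences make the split between them uncertain, rose by 4.28 ± 0.33 and 5.09 ± 0.32 in WT, and in Adam17ex had 1.49 ± 0.58 (adjusted p = 0.0569) and 0.15 ± 0.48 (adjusted p = 0.844). The interaction passed for 4, all negative. Without the shallow libraries it was -2.49 for Hspb1, -1.19 for Sqstm1, -2.36 for Hspa1a and -4.03 for Hspa1b. That of Hspa1a, -2.80 (adjusted p = 0.0476), was lost in 14 of 16 fits without 1 library, all but those without WT cerulein 1 or Adam17ex cerulein 3 (-3.15 to -2.43 over the 16).

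Of 7 genes for 14-3-3 proteins, which bind phosphorylated Krt18, 5 rose and 0 fell in each genotype (medians 1.12 and 1.17). Sfn (stratifin) rose by 3.24 ± 0.32 in WT and 2.49 ± 0.38 in Adam17ex, Ywhah by 2.29 ± 0.18 and 1.58 ± 0.18, and Ywhaz by 1.12 ± 0.16 and 1.17 ± 0.16. Ywhag rose by 2.48 ± 0.20 and 1.29 ± 0.21. It was the 1 gene of the list that was lower in Adam17ex under cerulein (-0.92 ± 0.19, edgeR adjusted p = 0.00200). It was also the 1 gene that passed in the interaction (-1.18 ± 0.29, adjusted p = 0.0175), which was -1.14 without the shallow libraries. Under PBS 0 passed. Of 11 tested kinases and caspases that modify keratins, 1 rose and 3 fell in WT (median 0.10), 1 rose and 4 fell in Adam17ex (median -0.63), and 0 differed between genotypes or in the interaction. The 1 that rose was Mapkapk2, a stress-activated kinase (1.97 ± 0.20 and 1.82 ± 0.21).

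Of 16 other intermediate filament genes 4 were tested, of which 3 rose and 0 fell in WT (median 1.12) and 2 rose and 1 fell in Adam17ex (median 1.02), and 0 differed between genotypes or in the interaction. Nes (nestin, of progenitor and stellate cells) rose by 2.37 ± 0.24 and 1.87 ± 0.25, and Lmna (lamin A/C of the nuclear envelope) by 1.63 ± 0.20 and 1.51 ± 0.21. Vim (vimentin of mesenchymal cells) had -0.44 ± 0.39 in WT (edgeR adjusted p = 0.390). In Adam17ex it fell by 1.46 on the log2 scale (SE 0.37, adjusted p = 0.00476). Without the shallow libraries the value was -1.35, and without Adam17ex PBS 3 alone -0.91 (adjusted p = 0.0682). Of 17 tested epithelial transcription factors, 11 rose and 0 fell in WT (median 1.02) and 9 rose and 0 fell in Adam17ex (median 1.09); under cerulein 5 were higher and 2 lower in Adam17ex, under PBS 1 was higher, and the interaction passed for 0. The gene higher under PBS was Jun (1.68 ± 0.41, edgeR adjusted p = 0.0432), with 0.87 when the shallow libraries were left out. Its call was lost in 11 of 16 fits without 1 library. It stayed without WT cerulein 4, Adam17ex PBS 1 or 4, or Adam17ex cerulein 1 or 4. Junb and Jun, AP-1 subunits, rose by 2.90 ± 0.28 and 2.30 ± 0.36 in WT and by 2.46 ± 0.31 and 1.69 ± 0.34 in Adam17ex. Klf6, an injury-induced factor, rose by 1.51 ± 0.25 and 2.13 ± 0.24 and was higher in Adam17ex under cerulein (1.66 ± 0.23), the opposite direction to the keratins.

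Markers of the cells that carry these keratins were measured beside them. Of 12 tested duct markers, 6 rose and 4 fell in WT (median 0.70), 3 rose and 1 fell in Adam17ex (median 0.16), 2 were higher and 6 lower in Adam17ex under cerulein, 0 differed under PBS, and the interaction passed for 4, all negative. Their summed level, mostly Tff2, was 4591 to 6237, 3370 to 4545, 3335 to 6343 and 3497 to 5366 CPM in the 4 groups. Without Tff2 the others of the 16 summed to 616 to 716, 1251 to 1432, 733 to 917 and 806 to 940.1 CPM. None of the others was at 0 in any group. Of the 4 that fell in WT, Muc1, Prom1 and Bicc1 had -0.71, -1.20 and -0.71. The 2 higher in Adam17ex under cerulein were Car2 (1.67) and Muc1 (0.82). These are named after their values were seen. Cldn4 (a tight junction claudin) rose by 4.46 ± 0.31 in WT, had 0.54 ± 0.45 in Adam17ex (adjusted p = 0.386) and was lower in Adam17ex under cerulein (-3.98 ± 0.28, adjusted p = 2.27e-09). Epcam rose by 2.24 ± 0.19 and 1.33 ± 0.20, Cldn7 by 2.60 ± 0.21 and 1.47 ± 0.23, and Spp1 (osteopontin) by 1.56 ± 0.22 in WT, with -0.58 ± 0.23 in Adam17ex (adjusted p = 0.0578). Without the shallow libraries the interaction was -1.74 for Spp1, -3.76 for Cldn4, -0.84 for Cldn7 and -1.22 for Epcam. The part of duct cells in the keratin results was not tested.

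Of 16 acinar markers 1 rose and 8 fell in WT (median -0.57), 1 rose and 2 fell in Adam17ex (median -0.10), 3 were higher in Adam17ex under cerulein, and 0 passed under PBS or in the interaction. Their sum was 225345 to 300198, 145129 to 218520, 172276 to 305449 and 210322 to 267912 CPM in the 4 groups. Bhlha15 (Mist1, a regulator of acinar maturity) fell by 2.66 on the log2 scale in WT (SE 0.25) and by 1.84 in Adam17ex (SE 0.24), while Ptf1a, the acinar fate factor, rose by 0.93 ± 0.20 and 1.53 ± 0.22. Mesothelial cells also carry some of these keratins. Of 10 mesothelial markers, none at 0 in any group, 4 were tested: 1 rose in WT (median -0.18), 3 fell in Adam17ex (median -1.32) and 1 was higher in Adam17ex under PBS. Their sum was 25.2 to 104, 38.0 to 112, 125 to 334 and 69.5 to 102 CPM in the 4 groups, highest in Adam17ex PBS. The changes in Adam17ex were -1.51 for Igfbp6, -1.33 for Efemp1 and -1.30 for Upk3b. Without the shallow libraries they were -1.38, -0.82 and -1.09. Of 7 intestinal markers 1 was tested, Lgals4, which fell by 1.30 in WT (SE 0.37) and rose by 1.61 ± 0.35 in Adam17ex. Without the shallow libraries its change in Adam17ex was 0.95. The sums of the 7 were 20.8 to 24.6, 10.7 to 14.4, 12.1 to 36.4 and 22.2 to 101 CPM. In the 4 groups 3, 1, 3 and 1 of the 7 were at 0 in the whole group. The part of mesothelial and intestinal cells in the keratin results was not tested.

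The Adam17ex PBS libraries serve as the baseline of the Adam17ex comparison. Under PBS 2 of 7 fibroblast and stellate markers were higher in Adam17ex than in WT, Rgs5 and Sparc. Their calls were lost in 5 and 12 of 16 fits without 1 library. In that comparison 0 of 10 islet, 0 of 5 macrophage and neutrophil and 0 of 6 endothelial markers passed. Over all genes 0.631% were higher and 0.729% lower. With cerulein in Adam17ex, 8 of 10 islet markers, 5 of 7 fibroblast and stellate markers, 4 of 5 macrophage and neutrophil markers and 2 of 6 endothelial markers fell, against 0, 1, 1 and 1 in WT. Over all genes 16.2% fell in Adam17ex and 21.3% in WT. The endothelial count and the counts in WT differ little from these shares. Without the 3 shallow libraries the islet genes Ins1, Ins2, Chga and Iapp had -0.038, -0.15, 0.019 and 0.0095 in Adam17ex. With those libraries they ran from -2.22 to -1.87. The fibroblast and stellate markers Dcn, Lum and Rgs5 had -1.08, -1.35 and -1.04 with those libraries and -1.05, -1.43 and -0.83 without. The macrophage and neutrophil markers Csf1r, Lyz2, C1qc and C1qa had -2.75, -1.92, -1.74 and -1.46 with and -2.09, -1.75, -1.19 and -0.69 without. Endothelial Plvap and Cd34 had -1.03 and -0.85 with and -0.30 and -0.88 without. Summed fibroblast and stellate markers ran from 259 to 627, 274 to 382, 569.6 to 1633 and 445 to 628 CPM in the 4 groups. Of 3 tested B and plasma cell markers 3 fell in each genotype. In Adam17ex the call of Ighm was lost without Adam17ex PBS 3. That of Igkc was lost in 5 fits without 1 library (Adam17ex PBS 3 or 4, Adam17ex cerulein 1, 2 or 4). That of Jchain was lost in 3 (Adam17ex PBS 3 or 4, Adam17ex cerulein 2). The changes of Ighm, Igkc and Jchain in Adam17ex were -3.29, -2.93 and -3.55. Without the shallow libraries they were -4.07, -4.37 and -5.38. Of 5 adipocyte markers 5 fell in WT and 4 in Adam17ex, where the call of Retn was lost without Adam17ex PBS 3 or 4 or Adam17ex cerulein 4. The comparison between the cerulein groups (5 of 5 keratins lower in Adam17ex) does not take the level of either group from the shallow libraries. They enter it through the sex term of the fit and the estimate of spread, which all groups share. Leaving these libraries out is therefore no independent check of it. The part of these cells was not tested.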

How the data were processed

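The data are UMI counts of whole pancreas RNA from 16 mice. Per the labels' protocols, multiplexed libraries were made from 30 ng of total RNA by poly(A) priming, with a UMI of 10 bp and a sense read of 101 bp. The deposited counts are whole numbers per gene, not normalized; the submitters' processing notes name GRCm38, mm10, R 4.1.2, edgeR 3.36.0 and limma 3.50.0, with aligner, counter and UMI collapsing not given in the sources used here. With depths of 455547 to 1476159 UMIs, 1 UMI is 0.681 to 2.60 CPM, which limits Krt7 and Krt20.

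Counts were fitted with edgeR 4.0.16 in R 4.3.3 (filterByExpr with a count minimum of 10, TMM, 1 coefficient per group and sex, quasi-likelihood tests, 11 residual degrees of freedom), with Benjamini-Hochberg adjustment over 8236 genes and calls below 0.05. The script was tested on simulated data. DESeq2 1.42.0, limma 3.58.1, other scalings and subsets of libraries were alternatives. The members and lists were chosen with earlier results of these data known. The named genes are the members, up to 4 genes per list with the smallest p, the 3 genes most like each member, the 3 other keratins with the most counts, and Adam17. The labels do not say that replicates were prepared apart, so p-values measure the spread between these samples; within groups the libraries differed beyond sampling noise (chi-square per degree of freedom 3.79 to 13.1 over 24 pairs). The main fits did not pair libraries by replicate number.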

Additional observations from a re-analysis of the deposited data

Results flagged for a closer look

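For 4 of the 5 keratins the test of the difference itself showed that the change with cerulein differed between the genotypes. The difference of the log2 changes, Adam17ex minus WT, was -2.08 for Krt19, -1.83 for Krt7, -1.78 for Krt18 and -1.23 for Krt8. In each of the 16 fits without 1 library those of Krt8, Krt18 and Krt19 kept their call, with ranges of -1.34 to -1.04, -1.88 to -1.64 and -2.26 to -1.94, and that of Krt7 did not in 8 of them. Among females alone the calls of Krt8 (-0.90, edgeR adjusted p = 0.226) and Krt7 (-1.95, adjusted p = 0.213) ended. Without the 3 shallow Adam17ex PBS libraries, which leaves 1 in that group, the values were -0.82 for Krt8 and -1.68 for Krt7. In 20 sets of 4 libraries (5 keratins in 4 groups) no library lay far enough from the others to pass Dixon's critical value for 4 samples, where chance would flag about 1 in 20.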

How the results depend on the processing

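The 5 comparisons were repeated under 28 other settings, 16 of which left out 1 library. Of 693 values of single keratins, 660 kept their direction and side of the threshold, 24 lost the threshold, 1 gained it and 8 changed sign, all of the latter for Krt20. The counts of members called were 5 in WT, 3 in Adam17ex, 4 to 5 between genotypes under cerulein, 0 under PBS and 3 to 4 for the interaction when 1 library was left out. Under PBS the count was 1 with DESeq2, and the interaction count was 2 among females alone, a setting with fewer libraries. The fit without the 3 shallow libraries keeps 1 Adam17ex PBS library, too few to read its calls. Krt20 between genotypes under PBS was -0.22 with a replicate block, and ran from -0.94 to 0.39 when 1 library was left out, below 0 without WT PBS 4 (-0.044), WT cerulein 1 (-0.066), WT cerulein 4 (-0.013) or Adam17ex PBS 4 (-0.94). Its change with cerulein in Adam17ex was -0.77 among females, -0.35 without the shallow libraries, and from -0.081 (without Adam17ex cerulein 2) to 1.57 when 1 library was left out; the cause was not tested. Library totals with no scaling factors moved the median of all genes from -0.04 to 0.19 in WT, from 0.01 to -0.25 between genotypes under cerulein and from -0.01 to -0.23 for the interaction, and left each count of members as it was. The pairing by replicate number was checked by the correlation of same-numbered libraries' deviations, which ran from -0.22 to 0.24 over 24 pairs. Between Adam17ex PBS and Adam17ex cerulein 6 of 8 libraries were closest to their own number. There r was 5.4e-05 to 0.24 for like numbers and at most 0.082 for unlike ones. In each other pair of groups at most 2 of 8 were closest. Whether the numbers link libraries in Adam17ex was not tested. With a replicate block the counts were 5, 3, 5, 0 and 4, as without it, and all genes called were 3333, 2440, 749, 230 and 488 against 3388, 2493, 799, 112 and 496. Depth limits Krt7 and Krt20, which had as few as 5 and 2 UMIs in a library.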

Other observations

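Among the 19 other keratins 15 had fewer than 10 UMIs over all libraries and 2 were tested. Krt80, a type II keratin 40881 bp from Krt7, had 8, 130, 12 and 59 UMIs in WT PBS, WT cerulein, Adam17ex PBS and Adam17ex cerulein. It rose in WT (log2 3.88 ± 0.62, edgeR adjusted p = 3.19e-05), and had 1.22 ± 0.65 in Adam17ex (adjusted p = 0.163) and -1.15 ± 0.43 between genotypes under cerulein (adjusted p = 0.0999). Krt23, a type I keratin, had 37, 55, 25 and 15 UMIs. It had 0.09 ± 0.40 in WT (adjusted p = 0.908), fell by 1.70 in Adam17ex (SE 0.48, adjusted p = 0.0105) and was lower in Adam17ex under cerulein (-1.89 ± 0.43, adjusted p = 0.00539). The first of these calls was lost without Adam17ex PBS replicate 4 and the second without WT cerulein replicate 1. Krt10, a keratin of stratified epithelium with 12, 28, 9 and 21 UMIs, was not tested.

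Of genes within 50 kb of Krt18, Eif4b (41746 bp away, a translation factor) had 0.37 ± 0.17 with cerulein in WT (adjusted p = 0.0805). Gm36026, which overlaps Krt8, had 0, 15, 0 and 5 UMIs, and whether its reads were told apart from those of Krt8 is not given in the sources used here. Under cerulein in WT the pseudogene Krt8-ps rose by 4.62 ± 0.76 (adjusted p = 4.28e-05).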
